A study of Mus musculus with 2 samples.

Results

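The genes described here encode the nuclear subunits and the assembly factors of mitochondrial complex I in mouse brown adipose tissue (BAT). They were taken by symbol: 47 gene symbols began with Ndufa, Ndufb, Ndufc, Ndufs, Ndufv or Ndufaf, the pseudogene Ndufb1-ps was left out, and 46 of the 32285 genes in the count tables remained. By known role, 7 were core subunits, 9 supernumerary subunits of the matrix arm, 19 supernumerary subunits of the membrane arm and 8 assembly factors. Of the rest, 1 was the mitochondrial acyl carrier protein Ndufab1, which sits in both arms, and 2 carried the symbol by history (Ndufa4, now counted with complex IV, and its paralog Ndufa4l2).

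Complex I takes electrons from NADH, passes them along a chain of iron-sulphur clusters in its matrix arm to ubiquinone, and uses the energy to pump protons through its membrane arm. The matrix arm and the outer shell of the membrane arm are made from nuclear genes, the proton-pumping core of the membrane arm is made from mitochondrial DNA, and assembly factors join the modules without staying in the finished enzyme. In brown fat the proton gradient that complex I helps to build is dissipated by UCP1 to release heat.

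Single-nucleus RNA-seq had been run on interscapular BAT of 8-week-old mice, with 1 library for each genotype. The WT library came from Srsf1 flox/flox littermates without Cre, and the KO library from Srsf1 flox/flox mice carrying Adipoq-Cre, in which the adiponectin promoter drives recombination in mature adipocytes. Both groups therefore carried the floxed alleles, and the study's methods describe male mice. How many animals were pooled for a library is not given in the sources used here. Since each genotype was measured in 1 library, its nuclei do not stand for replicates and no p-value was computed. A gap between WT and KO cannot be told apart from a gap between the 2 libraries, and every interval is a 95% interval for counting error only.

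The WT library held 93102814 UMIs (unique molecular identifiers, 1 per captured RNA molecule) in 12846 barcodes, of which 12771 were kept with a median of 3428 UMIs. The KO library held 80090208 UMIs in 11495 barcodes, of which 11378 were kept with a median of 4354.5 UMIs. The libraries stood apart in a respect that bears on every value below: mitochondrially encoded genes took a median of 1.10% of the UMIs of a nucleus in WT and 0.0489% in KO. The deposited barcodes also began at unlike depths, with a lowest of 750 UMIs in WT and 500 in KO. The libraries shared 52 cell barcodes.

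Nuclei were called by the sum of 8 markers per cell type, and the classes are ranges on that score and not sharp types. Adipocyte-like nuclei numbered 2884 in WT and 902 in KO, and 625 and 205 nuclei lay within 0.5 of the limit of the score on either side. Adipose stem and progenitor cell (ASPC)-like nuclei numbered 332 and 1902, endothelial-like nuclei 2442 and 1162, immune-like nuclei 417 and 3409, and mural-like nuclei 442 and 258. In the adipocyte-like nuclei the median nucleus carried 129 adipocyte-marker UMIs per 10000 in WT and 137 in KO, and at most 1.72 of any other class. The marker Plin4, which coats lipid droplets, stood at 355 CPM (UMIs per 1000000 UMIs of the class) in WT and 3275 CPM in KO adipocyte-like nuclei and so helped to place KO nuclei in that class. Without Plin4 the class held 3177 WT and 500 KO nuclei, and with the marker shares of each library alone 1279 and 1661, so that even the order of the class sizes rests on the rule. Both alternatives were chosen after seeing the data. A further group of barcodes with under 1500 UMIs and at least 2% mitochondrial UMIs, called shallow mt-rich here, numbered 2398 in WT and 156 in KO. No class was called for 3721 nuclei in WT (29.1% of those kept) and 3529 in KO (31.0%).

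Srsf1, the targeted splicing factor, was counted 6050 times in WT and 553 times in KO adipocyte-like nuclei, or 183 against 65.8 CPM. Its log2 ratio of KO over WT was -1.47 (-1.60 to -1.35), and in the other 4 classes it lay between -0.66 and -0.75.

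Ndufs3 is the core subunit that the study followed at the level of splicing, and the exon in question is shown because gene-level counts cannot see it. The gene (ENSMUSG00000005510) lies on the minus strand of GRCm38 at chr2:90894634-90904827, spans 10.194 kb and has 7 exons in the transcript Ndufs3-201. Exon 6 lies at chr2:90898384-90898503, is 120 bases long and wholly coding, and leaves no remainder when divided by 3, so its loss would keep the reading frame. Capitals mark the purine-rich letters AGAAGGAT at bases 46 to 53, searched on the transcribed strand.

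Ndufs3 exon 6: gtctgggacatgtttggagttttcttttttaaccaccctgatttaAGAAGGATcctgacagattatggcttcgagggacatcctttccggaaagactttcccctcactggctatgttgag

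The same letters occurred in no other exon of that transcript and in 11 of the 1762 annotated exons of 120 bases in protein-coding transcripts, or 0.624%. The deposited values are UMIs per gene, so transcripts with and without exon 6 were added together in every Ndufs3 value below.

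The promoters of the members were searched for the letters of 4 factors known to act on nuclear genes of mitochondrial proteins, on both strands of the 300 bases from 250 before to 50 after the RefSeq start (GRCm38.p6). Of the 46 members, 40 had a promoter entry, and the share over all 27025 genes with an entry is given beside each count. GCGCATGCG, a form of the NRF1 site, was found in 4 members (10%, against 1.95% of all genes): Ndufa8, Ndufa11, Ndufaf4 and Ndufaf5. AAGATGGCG, a form of the YY1 site, was found in 6 (15% against 1.64%): Ndufa9, Ndufaf8, Ndufc1, Ndufs4, Ndufs6 and Ndufs7. CCGGAAGT, a form of the ETS site read by GABP, was found in Ndufs3 only (2.5% against 4.31%), and TCAAGGTCA, a form of the site of the estrogen-related receptors, in no member (0.466% of all genes). No set of letters contains another on either strand, and the NRF1 letters nearly read the same on both strands. The windows around the NRF1 letters of Ndufaf4 (chr4:24897940-24898008, plus strand) and Ndufa11 (chr17:56717672-56717740, plus strand), whose letters begin 113 and 60 bases before the start, are shown with them in capitals, to be read beside the levels of Nrf1 and of these genes. A match describes the letters only and not a site in use.

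Ndufaf4: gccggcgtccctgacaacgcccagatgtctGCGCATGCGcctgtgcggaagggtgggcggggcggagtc
Ndufa11: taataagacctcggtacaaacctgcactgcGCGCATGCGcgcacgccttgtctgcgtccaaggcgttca

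In adipocyte-like nuclei most complex I transcripts stood at a lower level in KO than in WT. The summed level of the 46 genes was 3001 CPM in WT and 1480 CPM in KO, a log2 ratio of -1.02 (-1.05 to -0.99). A member was compared where both libraries together held at least 50 of its UMIs in the class, which 45 of 46 did, and a member was called lower or higher where the ratio passed 2-fold. Of the 45, 33 were called lower and 0 higher, and all 45 had a ratio below 0. Over all 14341 genes compared in the same way, 18.9% were called lower and 17.0% higher. The median log2 ratio of the members was -1.34, against 0.0006 over all genes. Ndufa4l2, which marks hypoxic cells and pericytes, was the member left out, with 11 UMIs in WT and 0 in KO. Subtracting the level found in endothelial-like nuclei of the same library left 500 CPM in WT and 406 CPM in KO, a log2 ratio of -0.30. The endothelial-like nuclei held adipocyte markers at 44.3% of the adipocyte-like level in WT and 22.7% in KO. The subtraction was therefore not alike in the libraries, and -0.30 is not a ratio for adipocytes alone.

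**Figure D1:**
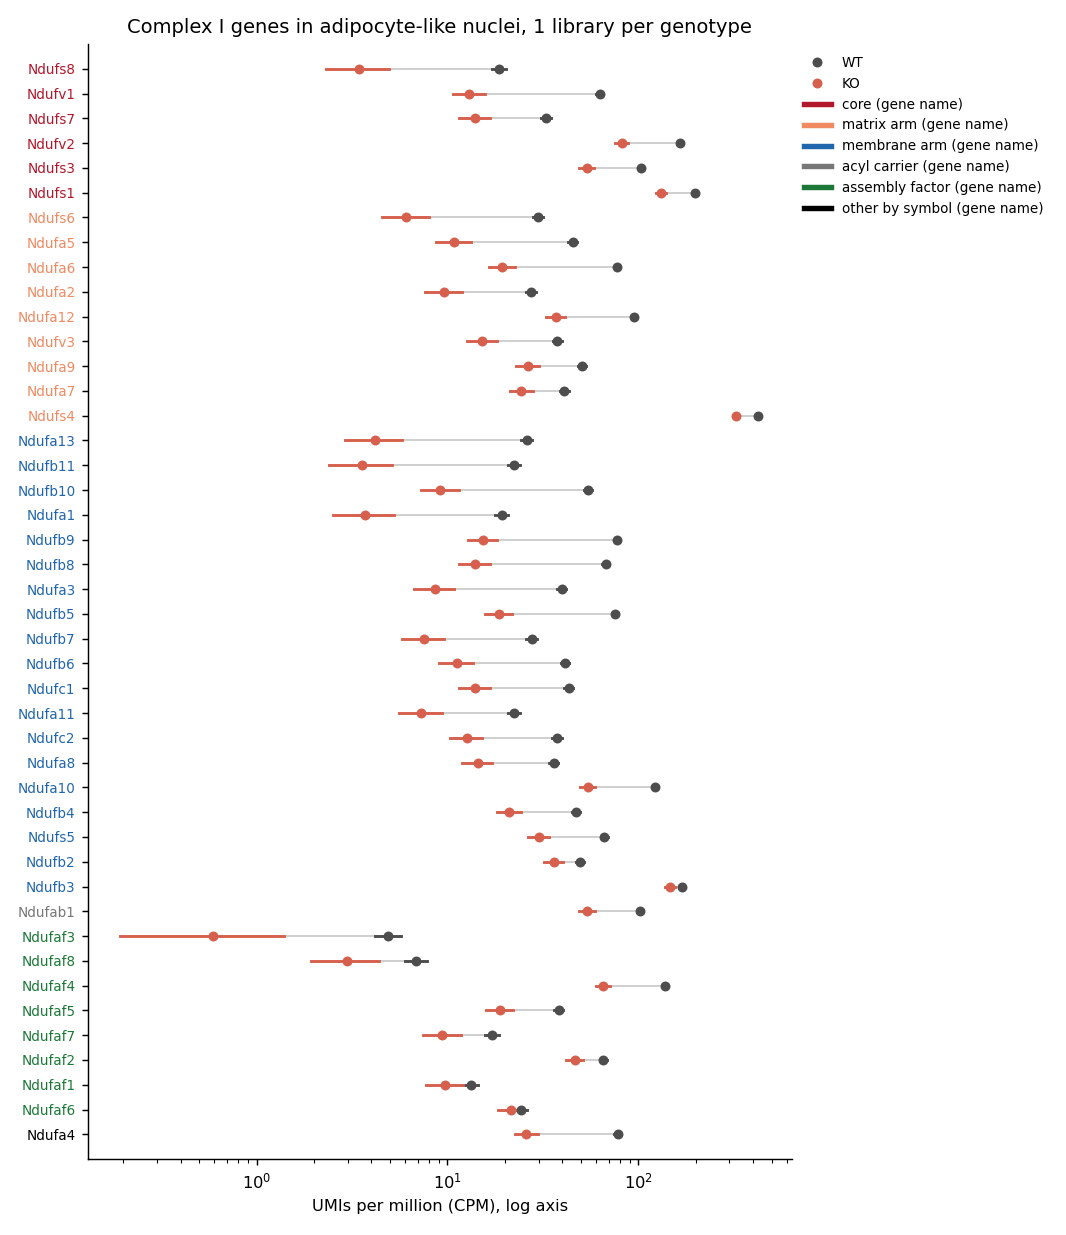
Level of 44 of the 45 members compared, in adipocyte-like nuclei of WT (grey) and KO (red), in CPM on a log axis; each point is 1 library, bars are 95% Poisson intervals and the colour of the gene name gives the role. Every red point lies left of its grey point, and the gap runs from Ndufaf3, with 162 against 5 UMIs, to Ndufaf6, whose intervals overlap.

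Among the core subunits, which hold the electron path from NADH to ubiquinone, 5 of 7 were called lower and the summed level was 640 CPM in WT and 321 CPM in KO. Ndufv1, which binds NADH and the flavin that accepts its electrons, was counted 2078 times in WT and 109 times in KO, a log2 ratio of -2.28, or 4.84-fold lower. Ndufs8, which carries 2 iron-sulphur clusters near the end of the chain, was counted 616 and 29 times (-2.43, -3.02 to -1.89). These 2 stood furthest apart of the core subunits. Ndufs7, which carries the last cluster before ubiquinone, had a log2 ratio of -1.24, and Ndufv2, a cluster-bearing partner of Ndufv1, had -1.01. Ndufs1 and Ndufs3 did not pass 2-fold. Ndufs1, the largest subunit and the holder of clusters in the NADH module, was counted 6511 and 1105 times (-0.58, -0.68 to -0.49).

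Ndufs3, a core subunit without a cluster of its own, was counted 3416 times in WT and 450 times in KO adipocyte-like nuclei. Its level was 103 CPM (99.8 to 107) in WT and 53.6 CPM (48.7 to 58.7) in KO, and the intervals did not overlap. The log2 ratio of -0.95 (-1.09 to -0.81) was the second nearest to 0 of the 7 core subunits and lay nearer to 0 than the median of the members. In ASPC-like nuclei Ndufs3 had 126 UMIs in WT and 498 in KO, a level of 53.9 against 35.4 CPM and a log2 ratio of -0.61 (-0.89 to -0.31). In endothelial-like nuclei the level was 61.1 against 33.1 CPM (-0.88, -1.18 to -0.59), and in mural-like nuclei 64.9 against 44.2 CPM (-0.56, -0.97 to -0.16). In immune-like nuclei it was 42.0 against 33.8 CPM (-0.31, -0.62 to 0.01), and there the interval of the ratio took in 0. Ndufs3 was thus on the lower side in KO in each of the 5 classes and past 2-fold in none. When nuclei were called with the marker shares of each library alone, an alternative chosen after seeing the data, it did pass 2-fold in ASPC-like (-1.07) and immune-like nuclei (-1.09).

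The matrix-arm supernumerary subunits, which wrap the electron path, summed to 829 CPM in WT and 473 CPM in KO, and 6 of 9 were called lower. Ndufs6, a zinc-binding subunit of the NADH module, was counted 985 and 51 times (-2.29, -2.73 to -1.89), and Ndufa5 and Ndufa6 had log2 ratios of -2.06 and -2.01. Ndufs4, whose loss in mice gives a well-known model of Leigh syndrome, differed least: 14038 UMIs in WT and 2721 in KO, or 424 against 324 CPM (-0.39, -0.45 to -0.33). Ndufa7 (-0.75) and Ndufa9 (-0.95) also stayed within 2-fold.

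The membrane-arm supernumerary subunits, which surround the proton-pumping core, had the lowest median of the 4 larger groups of roles, -1.88, and 17 of 19 were called lower. Their sum was 1044 CPM in WT and 432 CPM in KO. Ndufa13, also known as GRIM-19, was counted 863 and 35 times (-2.65), although its gene overlaps Yjefn3 on the same strand. Ndufb11, an X-linked subunit, was counted 737 and 30 times (-2.64), and Ndufb10, a cysteine-rich subunit on the intermembrane-space side, 1804 and 77 times (-2.57). Those 3 intervals all lay below -2.1. The 2 exceptions were Ndufb3, with 5605 and 1230 UMIs (-0.21, -0.30 to -0.12), and Ndufb2, with 1630 and 302 UMIs (-0.46). Ndufb3 was nearer to 0 in adipocyte-like nuclei than in the other classes, where its log2 ratio lay between -0.82 and -1.04. Ndufb2 overlaps a predicted gene on the same strand.

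Of the assembly factors, 4 of 8 were called lower, and the ratios of all but Ndufaf3 lay between -1.20 and -0.19. Ndufaf3, a partner of Ndufaf4 in building the ubiquinone module, was the sparsest member compared, with 162 UMIs in WT and 5 in KO (-3.04, -4.68 to -1.79), and reached the 50 UMIs through WT. That interval took in the ratios of Ndufa13 and Ndufb11. Ndufaf4 itself had 4537 and 551 UMIs (-1.06, -1.19 to -0.94). Ndufaf5, which hydroxylates Ndufs7, had -1.02, and Ndufaf8, the stabilising partner of Ndufaf5, had -1.20. The other 4 stayed within 2-fold. Ndufaf7, an arginine methyltransferase, had -0.87, Ndufaf2, a chaperone of late assembly, had -0.49, and Ndufaf1, which acts on the membrane arm, had -0.44. Ndufaf6, needed early for the ubiquinone module, was counted 806 and 180 times, and its ratio of -0.19 (-0.43 to 0.05) could not be told from 0 at this depth.

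The other parts of the respiratory chain were compared by lists. All 7 mitochondrially encoded complex I subunits were called lower in KO adipocyte-like nuclei, with a sum of 2379 CPM in WT and 154 CPM in KO and a log2 ratio of -3.95. The lowest ratio was that of mt-Nd6, with 1777 UMIs in WT and 6 in KO (-6.23). The sum of these 7 was also lower in KO in ASPC-like (-4.00), endothelial-like (-2.57), immune-like (-3.75) and mural-like nuclei (-2.71). Among nuclear genes, 2 of 4 of complex II, 8 of 9 of complex III, 11 of 12 of complex IV and 11 of 15 of ATP synthase were called lower. Over all genes compared in the class, 18.9% were called lower and 17.0% higher. In ATP synthase 1 member was called higher (1.53), and in complexes II, III and IV 0 were. The summed log2 ratios of complex II, complex III, complex IV and ATP synthase were -1.06, -1.48, -1.64 and -1.46. The sum of complex I was thus nearest to that of complex II. In ASPC-like, endothelial-like, immune-like and mural-like nuclei the sums of these other complexes were lower in KO as well. Complex IV, for example, had -2.04, -1.89, -1.94 and -1.37 there. Of 11 further assembly factors of complex I, 4 were called lower and 0 higher, beside the 18.9% and 17.0% of all genes. Dmac2, which acts on the distal membrane arm, had the lowest ratio of these (2765 and 51 UMIs, -3.78) and Foxred1, an oxidoreductase-like assembly factor, the next (1264 and 90 UMIs, -1.83). Nubpl, which delivers iron-sulphur clusters to complex I, lay on the other side, with 1148 and 405 UMIs, or 34.7 against 48.2 CPM (0.47, 0.31 to 0.64).

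The factors that drive nuclear genes of the chain differed among themselves. Of 11 regulators, 6 were called lower and 0 higher in adipocyte-like nuclei, beside 18.9% and 17.0% of all genes. Ppargc1a, the coactivator of mitochondrial biogenesis, stood at 4582 CPM in WT and 387 CPM in KO adipocyte-like nuclei (-3.57). Ppargc1b had -2.13, and the estrogen-related receptors Esrrg and Esrra had -2.89 and -0.80. Gabpa, the DNA-binding subunit of GABP, had -1.63. Nrf1 stood at 143 CPM in WT and 172 CPM in KO (0.27, 0.18 to 0.35), and Yy1 had 0.33, so both were on the higher side and within 2-fold. The 4 members with the NRF1 letters in their promoters, shown above for Ndufaf4 and Ndufa11, had log2 ratios of -1.06 (Ndufaf4), -1.61 (Ndufa11), -1.32 (Ndufa8) and -1.02 (Ndufaf5). Ppargc1a was not lower in adipocyte-like nuclei alone. It had -3.57 in ASPC-like, -4.19 in endothelial-like, -3.30 in immune-like and -3.89 in mural-like nuclei. Nrf1 was on the higher side in each of those classes, between 0.37 and 0.53.

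Outside the adipocyte-like class, which is where Adipoq-Cre acts, the complex I sum was lower in KO to a similar degree in 4 classes. In ASPC-like nuclei it was 1922 CPM in WT and 950 CPM in KO (-1.02), in endothelial-like nuclei 2501 and 1074 CPM (-1.22), in immune-like nuclei 1868 and 969 CPM (-0.95) and in mural-like nuclei 2423 and 1230 CPM (-0.98). The few Schwann-like nuclei, 95 in WT and 35 in KO, had a log2 ratio of -1.14. Muscle-like nuclei, 40 in WT and 25 in KO, lay nearer to 0, at -0.29 (-0.46 to -0.12). Of 43 members compared in ASPC-like nuclei 29 were called lower, beside 11.2% of all genes. The count was 29 of 44 in endothelial-like nuclei (15.4% of all genes), 27 of 44 in immune-like nuclei (10.3%) and 26 of 43 in mural-like nuclei (10.9%). No member was called higher in any of these 4 classes, beside 6.99%, 4.46%, 8.72% and 6.24% of all genes. The comparisons of all classes use different nuclei but the same 2 libraries.

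**Figure D2:**
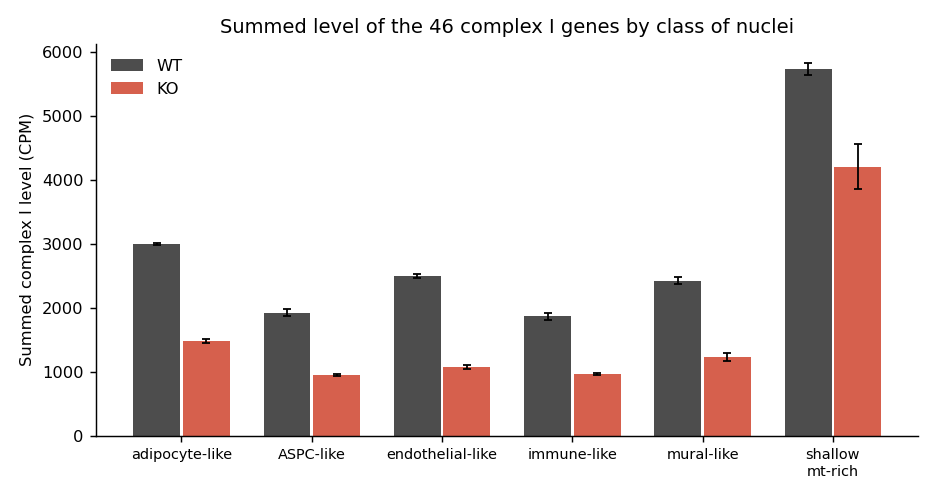
Summed level of the 46 members in CPM by class of nuclei, WT in grey and KO in red, 1 library each, with 95% Poisson intervals. KO bars lie between 950 and 1480 CPM in the 5 named classes against 1868 to 3001 CPM in WT, and the shallow mt-rich barcodes stand highest in both genotypes.

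Of the 42 members compared in all 5 classes, 39 had a ratio below 0 in each and 20 were called lower in each. Of 8939 genes compared in all 5 classes, 2114 (23.6%) had a ratio below 0 in each and 433 (4.84%) were called lower in each. Those 20 included Ndufv1, Ndufs7, Ndufs8, Ndufs6, Ndufv3 and 7 of the Ndufb and Ndufc subunits. In no class were 7 members called lower: Ndufa9, Ndufaf2, Ndufaf6, Ndufaf7, Ndufs1, Ndufs3 and Ndufs4. The share of all genes called lower in no class was not computed. Within a class only 10.3% to 18.9% of all genes were called lower, so not being called was the usual state of a gene. With the marker shares of each library alone, 2 of these 7 passed 2-fold, Ndufs3 as given above and Ndufa9 in ASPC-like nuclei (-1.27). With the main call of classes, the 3 members with a ratio above 0 in at least 1 class were all assembly factors: Ndufaf2 (0.29 in ASPC-like and 0.13 in immune-like nuclei), Ndufaf5 (0.21 in ASPC-like) and Ndufaf6 (0.33 in immune-like and 0.07 in ASPC-like). The intervals of Ndufaf5 (-0.23 to 0.68) and of Ndufaf6 (-0.13 to 0.82 and -0.40 to 0.57) took in 0. With the marker shares of each library alone, Ndufaf6 fell below 0 in both classes (-0.16 and -0.14). Ndufaf2 then stood at -0.06 in immune-like and 0.05 in ASPC-like nuclei. The assembly factors as a group summed to 181 CPM in WT and 166 CPM in KO ASPC-like nuclei (-0.13, -0.28 to 0.02), and that interval took in 0. Their summed log2 ratio was -0.48 in endothelial-like, -0.32 in immune-like and -0.52 in mural-like nuclei, against -0.81 in adipocyte-like nuclei.

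**Figure D3:**
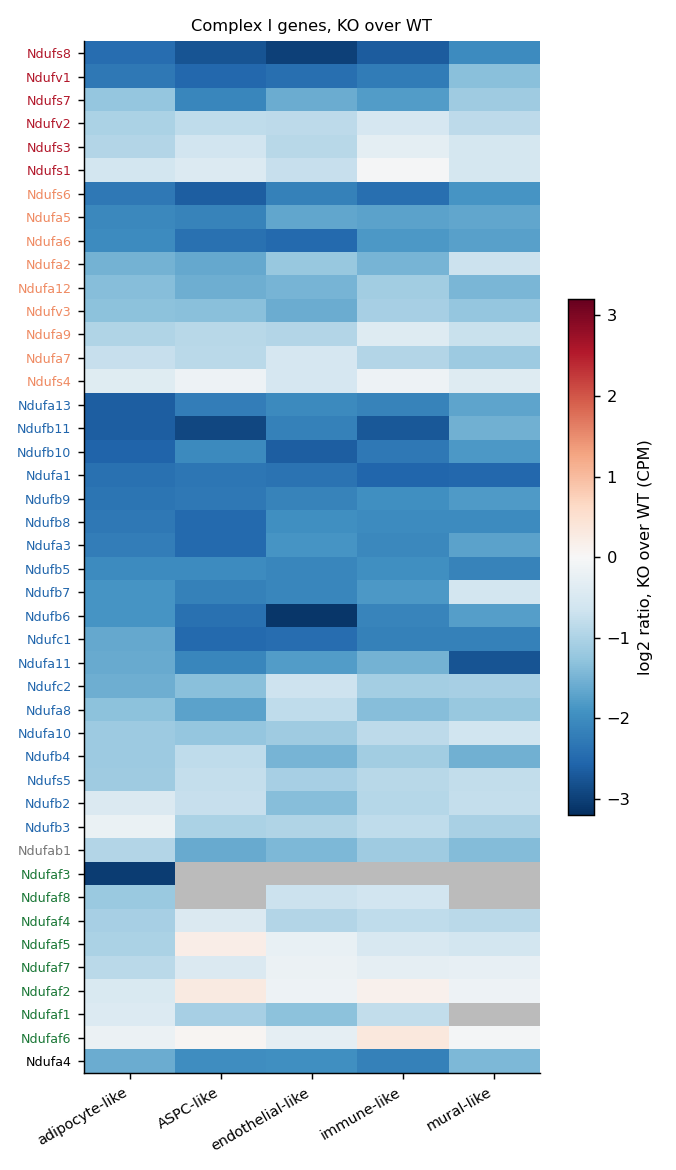
Log2 ratio of KO over WT for 44 of the 45 members in the 5 classes of nuclei, blue for lower in KO and red for higher, with grey for members under 50 UMIs in that class; names are coloured by role as in the plot of levels. Blue runs across all 5 columns for most subunits, while the pale rows are Ndufs1, Ndufs3, Ndufs4 and several assembly factors.

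Transcripts of adipocytes were found in every class. In WT endothelial-like nuclei complex I stood at 83.3% of its level in adipocyte-like nuclei, and Ucp1, which endothelial cells do not make, stood at 53.1% of its own (901 against 1698 CPM). The 8 adipocyte markers summed to 5900 CPM in WT endothelial-like nuclei, or 44.3% of the level in adipocyte-like nuclei, and to 3413 CPM, or 22.7%, in KO. None of the 8 was at 0. Pparg was the most abundant, at 3261 CPM in WT and 2052 CPM in KO, so it made up more of that sum than the rest together. The other 7 summed to 2639 CPM in WT, or 34.8% of their adipocyte-like level, and to 1361 CPM, or 11.7%, in KO. Of the 8 markers 7 were lower in KO, with Plin4 the exception. In the other classes of WT nuclei complex I stood at 64.0% (ASPC-like), 62.3% (immune-like) and 80.8% (mural-like) of its adipocyte-like level, and Ucp1 at 39.2%, 29.6% and 58.2%. In KO, complex I stood at 64.2%, 72.6%, 65.5% and 83.1% in the ASPC-like, endothelial-like, immune-like and mural-like nuclei, and Ucp1 at 36.9%, 71.2%, 43.4% and 74.9% of a level of only 41.7 CPM. How much of the complex I signal outside adipocytes came from adipocyte RNA was not tested.

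In adipocyte-like nuclei the level of complex I also moved with the mitochondrial share within a library, and so did depth. When WT adipocyte-like nuclei were divided into 4 equal groups by that share, the complex I sum was 2689 CPM in the lowest group, then 3029 and 3196 CPM, and 3490 CPM in the highest. The assembly factors went from 299 to 314 CPM between the lowest and the highest group, the proteins of the cytosolic ribosome from 1826 to 2935 CPM, and the median UMIs of a nucleus from 10618 to 6179. In KO adipocyte-like nuclei the complex I sum was 1379 CPM in the lowest and 1641 CPM in the highest group, the assembly factors stood at 160 and 208 CPM, and the median UMIs were 8471.5 and 5658. The order was not kept in every class: in KO endothelial-like nuclei the complex I sum of the 4 groups was 851, 986, 885 and 1528 CPM. The part of depth in these levels was not tested. The shares themselves hardly met: the median was 0.105% in the highest KO group and 0.482% in the lowest WT group. With WT nuclei limited to at most 0.666% mitochondrial UMIs, the 95th percentile of KO, the log2 ratio in adipocyte-like nuclei was -0.91. The 1141 WT nuclei within that limit still had a median share of 0.539%, against 0.0399% in KO, so the limit did not match the libraries.

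Shallow mt-rich barcodes of WT held a higher level of complex I transcripts than adipocyte-like nuclei of the same library. The sum was 5739 CPM in them and 3001 CPM in adipocyte-like nuclei, 1.91-fold higher (log2 ratio 0.94, 0.91 to 0.96). Of 45 members 27 were at least 2-fold higher, beside 20.2% of all genes compared, and 39 had a ratio above 0. The median log2 ratio of the members was 1.36, against 0.048 over all genes. The 2 groups of barcodes differed in cell type markers too. Adipocyte markers summed to 6244 CPM in shallow mt-rich barcodes and 13315 CPM in adipocyte-like nuclei, endothelial markers to 2525 and 452 CPM, muscle markers to 895 and 42.6 CPM, ASPC markers to 658 and 171 CPM, and immune markers to 640 and 153 CPM. The comparison is therefore not one within adipocyte material alone, and the part of other cell types in it was not tested. The roles separated here. The membrane-arm subunits stood 2.61-fold higher in sum, with 16 of 19 called higher, the matrix-arm subunits 1.55-fold (6 of 9) and the core subunits 1.41-fold (3 of 7), while the assembly factors stood at 0.872 times their adipocyte-like level, with 1 of 8 called higher.

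Ndufa1, a small X-linked membrane-arm subunit, had the largest difference, with 114 CPM in shallow mt-rich barcodes and 19.2 CPM in adipocyte-like nuclei (5.95-fold). Ndufs6 stood 4.58-fold and Ndufb11 4.80-fold higher. Ndufaf6 had the smallest ratio, at 14.6 against 24.4 CPM (log2 -0.74, -1.28 to -0.26), followed by Ndufaf4 (-0.62) and Ndufs4 (-0.54). Ndufs3 stood at 108 CPM in shallow mt-rich barcodes and 103 CPM in adipocyte-like nuclei, and the interval of its log2 ratio, 0.06 (-0.13 to 0.24), took in 0. Proteins of the cytosolic ribosome, whose short and stable mRNAs are mostly cytoplasmic, stood 3.74-fold higher in the same barcodes, and the mitochondrially encoded complex I subunits 5.16-fold. The latter is partly set by the limit on mitochondrial UMIs that defines these barcodes.

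**Figure D4:**
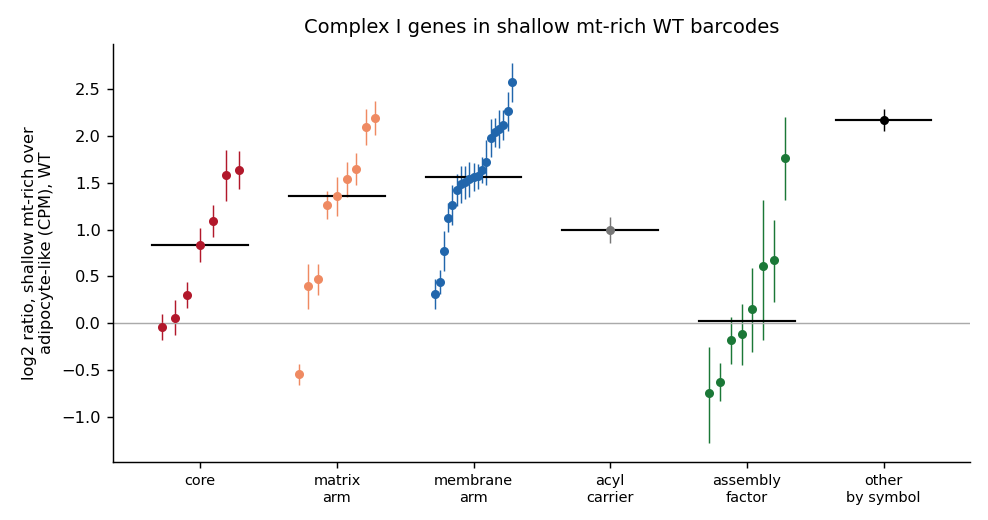
Log2 ratio of shallow mt-rich barcodes over adipocyte-like nuclei, both WT, for the 45 members by role; points are members with 95% intervals and black lines are medians over a role. Membrane-arm subunits all lie above 0, with Ndufa1 highest at 2.57, and the assembly factors lie on both sides of 0.

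The KO ratios of the members are set beside their ratios in shallow WT barcodes. All these comparisons share the WT library, and adipocyte-like nuclei are left out because the same WT nuclei would enter both ratios. In immune-like nuclei the 27 members at least 2-fold higher in shallow WT barcodes had a median log2 ratio of KO over WT of -1.85, and 17 others compared had one of -0.54. All genes divided in the same way had medians of -0.09 and -0.001 there. In ASPC-like nuclei the medians of the members were -2.11 and -0.75 (0.06 and -0.04 over all genes), in endothelial-like nuclei -1.95 and -0.93 (0.28 and -0.09), and in mural-like nuclei -1.68 and -0.68 (0.44 and 0.03). The share of all genes called lower was 15.7% of those at least 2-fold higher in shallow barcodes and 8.78% of the others in immune-like nuclei, 15.2% and 10.4% in ASPC-like, 11.9% and 16.3% in endothelial-like, and 9.24% and 11.3% in mural-like nuclei. The division of all genes thus had no single direction over the classes. These shares are a description and were not tested. The KO ratio of shallow mt-rich barcodes themselves was smaller than that of any of the 5 named classes, at 5739 CPM in WT and 4202 CPM in KO (-0.45). These barcodes were not alike in depth, with a median of 955 UMIs in WT and 759.5 in KO.

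The members that differed most were also the shorter genes. Their genes span 1.778 kb (Ndufaf8) to 155.9 kb (Ndufaf2), with a median of 8.09 kb against 12.3 kb over all annotated genes. Of 27 members under 10 kb compared in adipocyte-like nuclei, 25 were called lower, with a median log2 ratio of -1.88 and a sum of 1296 CPM in WT and 489 CPM in KO. Of all genes compared, 36.2% of those under 5 kb and 27.1% of those of 5 to 10 kb were called lower, against 18.9% from 10 to 20 kb and 13.9% from 20 to 50 kb. The share was 9.86% from 50 to 100 kb and 15.98% over 100 kb, so it did not fall steadily with length. Of 16 members of 10 to 50 kb, 8 were called lower (median -0.98), and of the 2 members over 50 kb, Ndufs4 and Ndufaf2, none (median -0.44). Both of the latter are over 100 kb long, and 2 genes are too few to set beside the share of all genes there. Across the 45 members the log2 ratio and log2 gene length had a Pearson r of 0.64 and a Spearman rho of 0.65, and r was 0.60 without Ndufaf2 and Ndufs4. These points are genes of the same 2 libraries and not independent samples. The r was 0.71 in ASPC-like (43 members), 0.58 in endothelial-like (44), 0.67 in immune-like (44) and 0.50 in mural-like nuclei (43), and without the same 2 genes 0.65, 0.51, 0.61 and 0.41. Over all 14270 genes with a length in adipocyte-like nuclei it was 0.19 (rho 0.24).

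The members lay below other genes of like length. In adipocyte-like nuclei the median log2 ratio of all genes went from -0.62 under 5 kb to 0.26 over 100 kb, and that of the members from -2.11 to -0.44. In the bin of 10 to 20 kb, which holds Ndufs3, the median was -0.10 over 2746 genes and -0.95 over 9 members. The ratio in shallow WT barcodes ran the other way with length, with r of -0.68 over 45 members and -0.05 over all genes. Gene length and the level in shallow barcodes thus moved together over the members, and the part of either in the KO ratios was not tested.

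**Figure D5:**
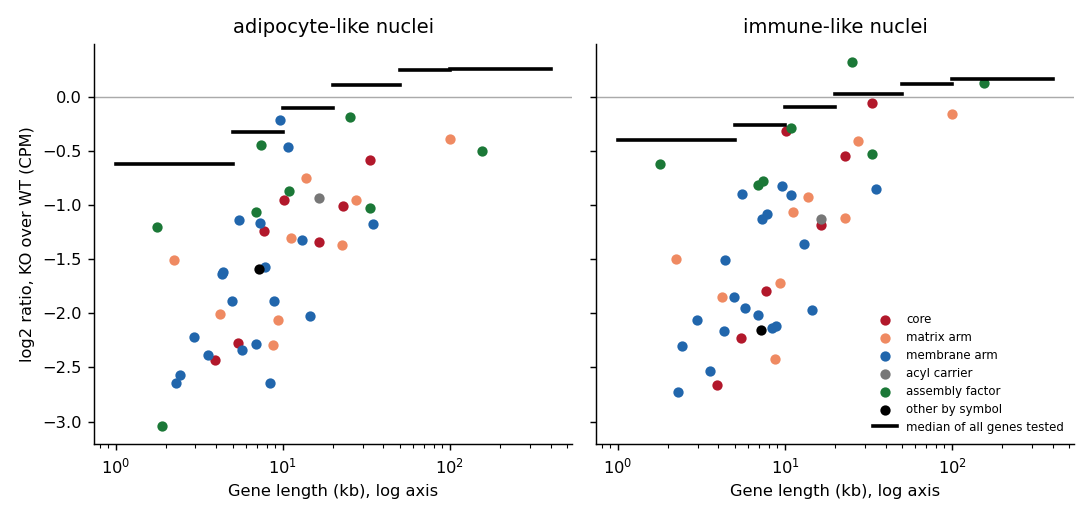
Log2 ratio of KO over WT against gene length in kb (log axis) for members in adipocyte-like (left) and immune-like nuclei (right), coloured by role; black bars are medians over all genes compared in a length bin. Members under 10 kb reach -3.04 on the left, the 2 longest lie at -0.39 and -0.49, and nearly all points lie below the black bars.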

How the data were processed

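The authors aligned the reads of 10x Genomics 3' v3.1 libraries to GRCm38 (mm10) with STAR and deposited raw UMI counts per gene and barcode from Cell Ranger, 1 matrix per library and without normalization. The file headers and the submitters' processing notes give Cell Ranger 5.0.0, and the methods name an earlier version. Seurat 3.1.1 is named for later steps. Whether intronic reads and strand were used in counting is not given in the sources used here.

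Barcodes with under 200 genes or over 10% mitochondrial UMIs were removed, and so were those whose log UMIs or log genes lay more than 3 median absolute deviations from the median of their library. For each cell type the excess of 8 marker UMIs over the mean share in both libraries was divided by the square root of the expected UMIs plus 1. A class was called where the top excess was at least 3, at least 2 times the next and rested on at least 3 UMIs. No doublet caller was run, and barcodes in which no class led the next by 2 times stayed uncalled. Called nuclei can still hold markers of other classes: the median endothelial-like and mural-like nuclei of WT carried 45.1 and 41.3 adipocyte-marker UMIs per 10000. Nuclei within 0.5 of the limit were counted as close to it. UMIs were summed per library and class and scaled to 1000000 (CPM). Intervals of levels are exact Poisson and those of ratios come from exact binomial intervals, both at 95%. They cover counting error only. A gene needed 50 UMIs in the class, both libraries added, to be compared, and was called past 2-fold. Members are named by role, with the highest and lowest ratios of each. Of the 46 members, 6 overlap another gene on the same strand and 18 on the opposite strand, Ndufs3 among the latter, so reads may be shared. The ratio and its interval were tested on simulated sums for adipocyte-like nuclei. The filter, the calling of classes and RNA from other cell types were not simulated. Gene positions came from GENCODE M21, promoters from RefSeq (GRCm38.p6), and the tools were Python 3.11.15, numpy 2.4.6, scipy 1.17.1, pandas 2.3.3 and matplotlib 3.10.9. The members, roles and lists were chosen with earlier results of these data known. The promoter letters were chosen after the data had been seen, and the NRF1 letters were cut from 10 to 9, which added Ndufa8 to the members that hold them. The values of 1 member are not reported here on their own.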

Additional observations from a re-analysis of the deposited data

How the results depend on the processing

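The complex I sum stayed lower in KO in every class and shallow WT barcodes stayed above adipocyte-like nuclei under all alternatives run. Of 74 alternatives, 41 moved a result by less than its counting interval, or a count by less than 1.5 times, 33 moved it further and 0 reversed it. The count of members called lower in adipocyte-like nuclei stayed between 30 and 35 (33 as reported). For 49 single values 539 alternatives were run, of which 21 moved the value beyond its interval and 0 turned its sign. The values lay below 0 under all 539, so ratios printed above 0 were not among them. Of those, Ndufaf6 turned below 0 in immune-like (-0.16) and ASPC-like nuclei (-0.14) with the marker shares of each library alone. So did Ndufaf2 in immune-like nuclei (-0.06).

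The log2 ratios that moved follow, as adipocyte-like, ASPC-like, endothelial-like, immune-like and mural-like where all 5 did. Keeping barcodes by set limits (from 500 up to 5000 genes, 5% mitochondrial UMIs) gave -1.08, -1.11, -1.33, -1.06 and -1.21. Leaving out the 10% of barcodes with most UMIs gave -1.07, -1.12, -1.38, -1.07 and -1.26. The mean over nuclei gave -1.06, -1.15, -1.49, -1.17 and -1.28. WT nuclei of at most 0.666% mitochondrial UMIs gave -0.91, -0.83, -0.99, -0.81 and -0.86. No filter gave -0.98 in adipocyte-like nuclei, no lead over the next class -1.15 in endothelial-like nuclei, and centring on the median of all genes -1.06 in mural-like nuclei. Subtracting the endothelial-like level, which held unlike shares of adipocyte markers in WT and KO, gave -0.30 in adipocyte-like nuclei. The next 2 alternatives were chosen after seeing the data. Marker shares of each library alone gave -0.95 in adipocyte-like, -1.31 in ASPC-like, -1.33 in immune-like and -1.11 in mural-like nuclei, and Ndufs3 then stood at -1.07 in ASPC-like and -1.09 in immune-like nuclei. Leaving Plin4 out of the markers gave -1.11 in adipocyte-like nuclei. For shallow WT barcodes (0.94 as reported), leaving mitochondrial genes out of the total gave 0.97, the mean over nuclei 0.85, limits of 2000 UMIs and 1% 0.72 and limits of 1000 UMIs and 3% 1.05. The cause of these shifts was not tested. No paired analysis was possible because there was 1 library per genotype. Depth limits the sparse members: Ndufaf3 rested on 5 UMIs in KO adipocyte-like nuclei.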

Other observations

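Shallow mt-rich barcodes of KO also held more complex I transcript than KO adipocyte-like nuclei, at 4202 CPM (3857 to 4569) against 1480 CPM, 2.84-fold higher, from 548 UMIs in 156 barcodes. Proteins of the cytosolic ribosome stood 17.0-fold higher in them, and they differed from the WT ones in markers, with adipocyte markers at 6244 CPM in WT and 3266 CPM in KO and immune markers at 640 and 2431 CPM. Uncalled nuclei, 3721 in WT and 3529 in KO, had a complex I sum of 2969 CPM in WT and 1470 CPM in KO. Muscle-like nuclei, 40 in WT and 25 in KO, had 2813 and 2304 CPM. The cytosolic ribosome list did not move as complex I did between classes: its summed log2 ratio of KO over WT was -0.49 in adipocyte-like, -1.05 in ASPC-like, -0.13 in endothelial-like, -0.52 in immune-like and 0.31 in mural-like nuclei. The 78 mitochondrial ribosomal proteins had -0.41 in adipocyte-like nuclei, with 31 called lower and 1 higher, beside 18.9% and 17.0% of all genes compared in that class.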
